A study of Homo sapiens
Mus musculus with 2 samples.

Results

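Levels of 2 nuclear long noncoding RNAs were measured in single-cell libraries of human and mouse lymphocytes, namely mouse Malat1 (mm10_ENSMUSG00000092341) and Neat1 (mm10_ENSMUSG00000092274) and human MALAT1 (hg19_ENSG00000251562) and NEAT1 (hg19_ENSG00000245532). These 4 genes were taken by identifier from the 29259 genes of the count tables, and all 4 were present in both tables. The 2 Drop-seq libraries had been made from equal parts of 4 cell lines, the human T cell lines Jurkat and TALL-104, the mouse T cell line EL4 and the mouse B cell line IVA12. Cells were encapsulated with a Dolomite instrument at 150 cells per µl for 1 library and at 300 cells per µl for the other, with no replicate and no treatment at either concentration. The tables held 2000 and 4000 barcodes with 2398956 and 8707135 UMIs, where a UMI (unique molecular identifier) counts each captured molecule once. A barcode marks 1 bead, which may have met a cell, several cells or only RNA that was free in the suspension. The libraries shared 1 barcode, which had 632 UMIs in the first table and 3124 in the second.

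MALAT1 and NEAT1 are transcribed from neighbouring loci and their RNAs remain in the nucleus. MALAT1 is among the most abundant noncoding RNAs of mammalian cells and gathers in nuclear speckles, where splicing factors are stored, and its mature 3′ end is a triple helix instead of a poly(A) tail. NEAT1 is the scaffold of paraspeckles, nuclear bodies that hold RNA-binding proteins, and has a short polyadenylated isoform and a long isoform that ends, like MALAT1, in a triple helix. Drop-seq beads capture RNA by oligo-dT, so both RNAs can be under-sampled and the isoforms of NEAT1 were not told apart. In the RefSeq annotation of GRCh38.p14 both genes lie on human chromosome 11 with 3 genes listed between them. No sequence is shown, since no sequence table of these genes was used.

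Barcodes were described in 3 depth classes. The lowest class held every barcode of 200 to 600 UMIs, 1672 at 150 and 2053 at 300 cells per µl, whatever their species. The shallow class held barcodes of 1000 to under 2000 UMIs and the deep class those of 2000 UMIs or more, in both cases with at least 90% of the UMIs from 1 species. There were 12 and 109 shallow and 73 and 576 deep mouse barcodes, and 5 and 36 shallow and 82 and 282 deep human barcodes, at 150 and 300 cells per µl respectively. The level of a gene was its UMIs per 10000 UMIs of its own species, summed over a class. A level is a share, so more of the gene and less of the other RNAs cannot be told apart. Brackets after a level give the 95% Poisson interval, which covers counting error only.

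Of the 3 depth classes, mouse Malat1 had its highest level in the shallow class. In the deep class it made up 56.7 per 10000 mouse UMIs (55.3 to 58.2, 5926 UMIs) at 150 cells per µl and 47.9 (47.3 to 48.5, 25717 UMIs) at 300 cells per µl. In the shallow class the level was 214 (192 to 239, 334 UMIs) and 98.6 (93.5 to 104, 1425 UMIs). Both libraries thus held more Malat1 per mouse UMI in the shallow class, but the 2 shallow values were far from each other and the one at 150 cells per µl came from 12 barcodes. In a fit of both libraries across 6022 mouse genes, the shallow class was 2.79-fold higher than the deep class (log2 fold change 1.48, SE 0.15), with an adjusted p of 6.64e-21 by edgeR's quasi-likelihood test with Benjamini-Hochberg adjustment. Of all mouse genes tested, 0.349% were called higher in this comparison. The log2 difference was 1.92 in the 150 library alone and 1.04 in the 300 library alone. These lay further apart than the SE, which rests on a spread shared across genes, so the SE and p do not measure the spread of Malat1 itself. With TMM scaling (a trimmed-mean normalization between sums) the log2 difference was 1.23 (SE 0.39) with an edgeR adjusted p of 0.373.

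In barcodes of 200 to 600 UMIs the Malat1 level was 61.7 (59.3 to 64.1, 2542 UMIs) and 79.5 (77.5 to 81.4, 6302 UMIs). These values were above the deep class in both libraries, by 0.12 on the log2 scale in the first library and 0.73 in the second. The fitted log2 difference was 0.46 (SE 0.14) with an edgeR adjusted p of 0.0104, against 11.9% of mouse genes called higher in the same comparison. This call did not hold with TMM scaling, where the edgeR adjusted p was 0.607, nor with DESeq2, without the library block or with the lowest class restricted to barcodes of at least 90% mouse UMIs.

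**Figure D1:**
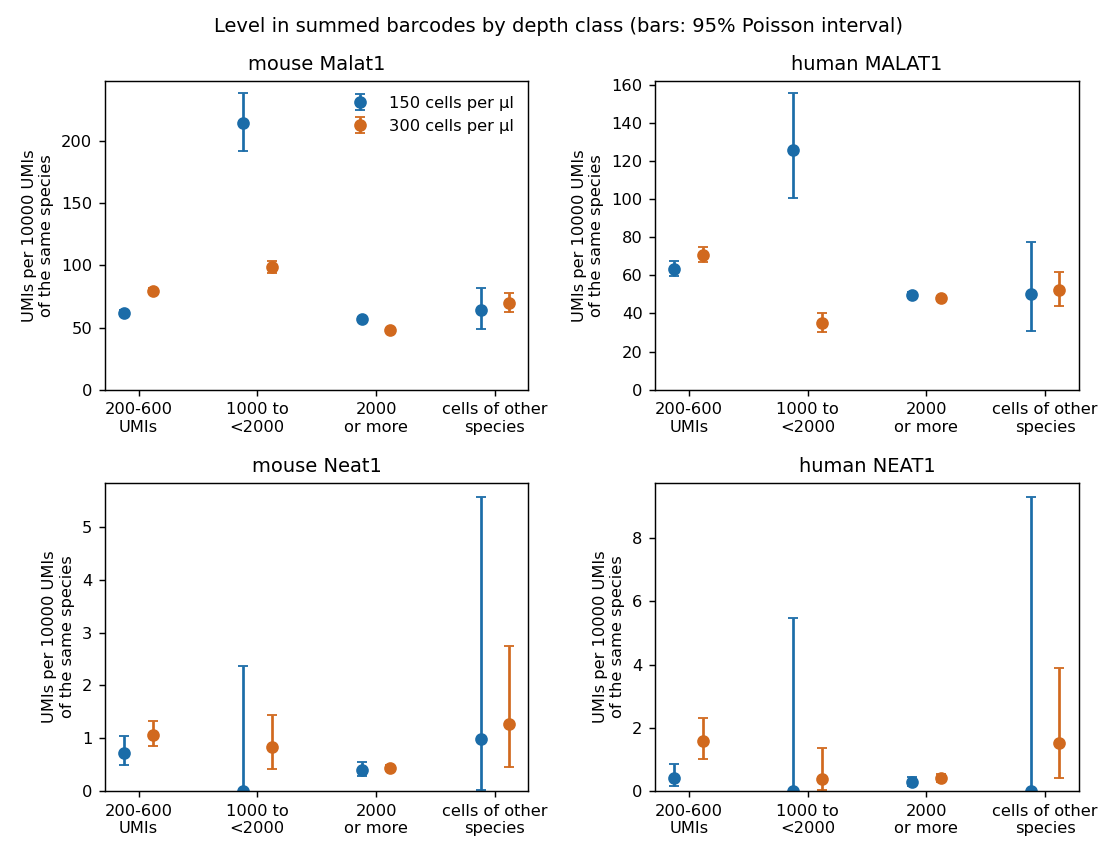
Level of each gene (UMIs per 10000 UMIs of the same species, linear axis from 0) in the 3 depth classes and in deep cells of the other species, for the libraries at 150 (blue) and 300 (orange) cells per µl. Bars are 95% Poisson intervals. Malat1 in the shallow class stood at 214 and 98.6, above 56.7 and 47.9 in the deep class, while MALAT1 in the shallow class was above the deep class at 150 and below it at 300 cells per µl.

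Mouse UMIs found in deep human cells were taken as a measure of RNA that was not from the cell itself. In 82 and 282 such human barcodes the Malat1 level was 63.8 (49.1 to 81.4, 64 UMIs) and 69.6 (62.3 to 77.5, 330 UMIs) per 10000 mouse UMIs. The difference between the lowest class and this level was 0.04 on the log2 scale (SE 0.16), with an edgeR adjusted p of 0.999, and 0% of mouse genes were called higher there. At an unadjusted p under 0.05, 223 of 6022 mouse genes differed in either direction, and 2 were called by edgeR as lower. Free RNA, RNA of a second cell on the same bead and reads of 1 species assigned to the other cannot be told apart in these UMIs.

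The share of barcodes with a Malat1 UMI was measured before and after thinning to a common depth. Of deep mouse cells, 100% (95% exact binomial interval 95.1 to 100) had at least 1 Malat1 UMI in the 150 library and 99.8% (99.0 to 100) in the 300 library, at median depths of 13411 and 8284 UMIs. Of deep human cells, with median depths of 6411 and 3952 UMIs, 42.7% and 61.0% also had a Malat1 UMI. Of the barcodes of 200 to 600 UMIs, with median depths of 326 and 468 UMIs, 74.4% and 92.8% had one. When each barcode was thinned to 200 UMIs of both species together, with none left out, the shares fell to 53.6% and 47.6% of deep mouse cells and to 2.38% and 5.24% of deep human cells. A class with a smaller mouse share thus kept fewer mouse UMIs, and these shares are not at a common mouse depth. The median human share was 28.3% and 16.4% in the lowest class and 98.4% and 96.5% in deep human cells. Thinned in the same way, 56.8% and 71.1% of the barcodes of 200 to 600 UMIs and 63.3% and 58.8% of shallow mouse barcodes had a Malat1 UMI. A share of barcodes and a summed level are unlike measures, so the size of a difference in one cannot be set against that in the other.

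Mouse cells of 1000 UMIs or more fell into 2 expression groups, which were split by the first principal component with Malat1 and Neat1 left out and which are called mouse A (the larger) and mouse B. The mixture held 2 mouse lines, but identifiers were not paired with mouse gene names here, so the groups were not checked against markers and are not named after lines. Malat1 was higher in mouse B in both libraries. Deep mouse A cells had levels of 30.4 (29.0 to 31.9, 43 cells) and 22.4 (21.9 to 22.9, 342 cells), and deep mouse B cells had 91.0 (88.2 to 93.8, 30 cells) and 83.1 (81.9 to 84.3, 234 cells). Between the groups the level differed 3.46-fold (log2 difference 1.79, SE 0.06). No p is given for it, because the groups were split on the same cells, and 29.2% of mouse genes were called higher in mouse B by the same fit. Within a group, deep cells still varied: the middle 50% of mouse A cells ranged from 12.4 to 34.8 and from 12.8 to 27.3 per 10000, and of mouse B cells from 42.3 to 117 and from 37.0 to 101. The middle ranges of the 2 groups did not overlap in either library, but single cells did.

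The level in barcodes of 200 to 600 UMIs, 61.7 and 79.5, and in deep human cells, 63.8 and 69.6, lay between those of deep mouse A and deep mouse B in each library. How much each mouse group contributed to these UMIs was not determined, so a change of mixture and a change within cells cannot be told apart in the comparison of the lowest class with the deep class.

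The rise in shallow barcodes was then measured within the groups, a comparison that was added after the groups were seen. In mouse B the shallow level was 450 (401 to 503, 306 UMIs in 5 barcodes) and 151 (143 to 160, 1186 UMIs in 61 barcodes), above the deep level of the same group in both libraries. The fitted log2 difference was 1.59 (SE 0.24) with an edgeR adjusted p of 5.02e-08, where 0.414% of genes were called higher. Neither TMM scaling (0.97, edgeR adjusted p of 0.878) nor DESeq2 (1.41, adjusted p of 0.214) kept this call, and the 300 library alone gave 0.87. In mouse A the shallow level was 31.9 (21.2 to 46.1, 28 UMIs in 7 barcodes) and 36.1 (31.7 to 41.0, 239 UMIs in 48 barcodes), with a log2 difference from deep of 0.55 (SE 0.27) and an edgeR adjusted p of 1, where 0.069% of genes were called higher. The difference between the groups in this rise was 1.05 (SE 0.36) on the log2 scale with an edgeR adjusted p of 0.317, where 0.207% of genes were called higher, so the groups were not shown to differ. It was 2.24 in the 150 library alone and 0.18 in the 300 library alone.

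Much of the shallow Malat1 came from few barcodes. At 300 cells per µl the median shallow mouse B barcode had 60.5 Malat1 UMIs per 10000, close to the median of 61.9 in deep mouse B cells, while the highest had 870. In this library 12 of 61 shallow and 14 of 234 deep mouse B barcodes held 200 or more per 10000, and 0 of 390 mouse A barcodes did (exact binomial upper limit 0.941%). At 150 cells per µl, 4 of 5 shallow and 6 of 30 deep mouse B barcodes and 2 of 50 mouse A barcodes were at or above this level, with a highest value of 734. Over shallow and deep mouse barcodes together, the top 10% by Malat1 level carried 19.7% and 35.3% of all Malat1 UMIs with 3.14% and 9.14% of the mouse UMIs. The 12 Malat1-rich shallow mouse B barcodes at 300 cells per µl had a median depth of 1366 UMIs, against 1244 in the other 49. On the principal component they lay at a median of 80.2% of the deep mouse B value, against 36.5% for the others, so the other shallow barcodes had, at the median, less of the mouse B profile. The part of this position, or of free RNA in those barcodes, in the Malat1 level was not tested.

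**Figure D2:**
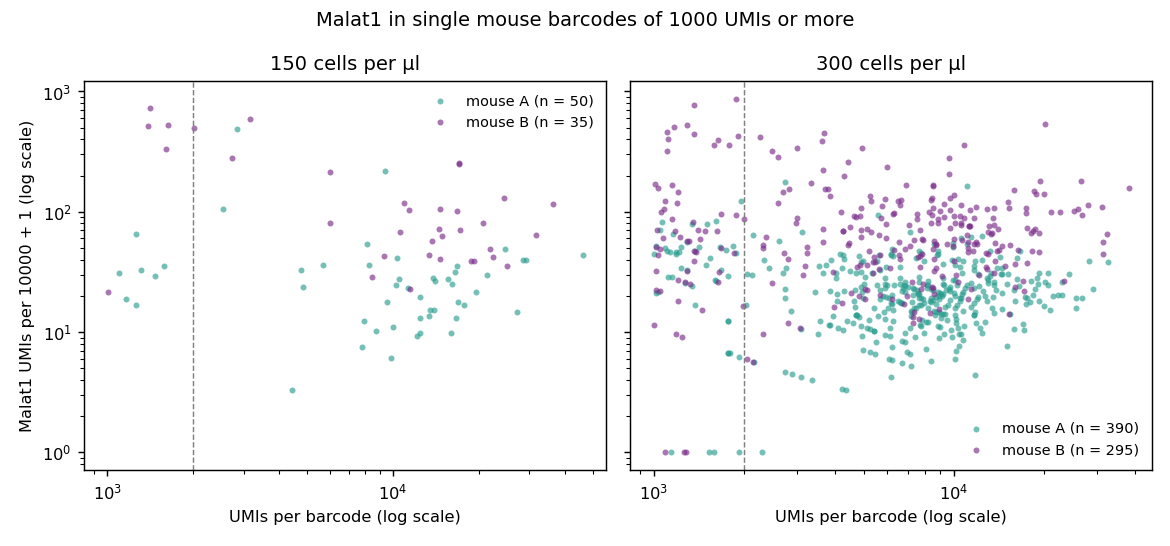
Malat1 UMIs per 10000 mouse UMIs plus 1 (log scale) against total UMIs (log scale) for each mouse barcode of 1000 UMIs or more, with mouse A in green and mouse B in purple and the dashed line at 2000 UMIs. Mouse B lay higher at most depths, and the barcodes of 200 or more per 10000 were mainly mouse B, with many of them near or below the dashed line.

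Among deep cells the Malat1 level varied more than that of most genes with at least 500 UMIs. Its overdispersion, the variance between cells beyond counting error divided by the squared mean, at 150 cells per µl was 0.638 for mouse A and 0.412 for mouse B. These values ranked 1 of 176 and 2 of 139 such genes, whose medians were 0.033 and 0.049. At 300 cells per µl they were 0.337 (rank 51 of 1219) and 0.743 (rank 15 of 859). One mouse B cell with 1078 Malat1 UMIs among 19991 mouse UMIs weighed heavily on the last value, which was 0.399 without it. The other values also fell without the cell of most Malat1 UMIs. At 150 cells per µl they were then 0.428 for mouse A and 0.351 for mouse B, and at 300 cells per µl 0.221 for mouse A. Across deep cells, Pearson's r between the log of the Malat1 level plus 1 and log depth was -0.16 and -0.54 for the 43 mouse A and 30 mouse B cells of the 150 library, and 0.12 and 0.08 for the 342 and 234 cells of the 300 library. Within deep cells there was thus no common direction with depth.

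Mouse Neat1 was rare, and its level was above that of deep cells in barcodes of 200 to 600 UMIs. Deep mouse cells had 0.41 (0.30 to 0.55, 43 UMIs) and 0.44 (0.38 to 0.50, 234 UMIs) Neat1 UMIs per 10000 mouse UMIs, and the lowest class had 0.73 (0.49 to 1.04, 30 UMIs) and 1.07 (0.86 to 1.33, 85 UMIs). The fitted log2 difference was 1.15 (SE 0.25) with an edgeR adjusted p of 1.54e-04, or 2.22-fold, and the single libraries gave 0.82 and 1.30. This is among the 11.9% of mouse genes called higher in that comparison. At 150 cells per µl the lowest-class level lay between those of deep mouse A (0.085) and deep mouse B (0.84). At 300 cells per µl it was above both (0.18 and 0.79), with an interval that overlapped that of mouse B. How much each mouse group contributed to the lowest class was not determined, and the part of the mixture in this rise was not tested. In deep human cells 1 and 6 Neat1 UMIs gave 1.00 and 1.27 per 10000 mouse UMIs, with intervals that covered the lowest class. The shallow class held no Neat1 UMI at 150 cells per µl, which allows a level of up to 1.93 per 10000, and 12 UMIs or 0.83 (0.43 to 1.45) at 300 cells per µl. A difference of the shallow from the deep class was not detectable at this depth (log2 difference 0.73, SE 0.53, edgeR adjusted p of 0.952).

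Neat1 was also higher in mouse B than in mouse A. Deep mouse A cells had 5 and 56 Neat1 UMIs, or 0.085 (0.027 to 0.20) and 0.18 (0.14 to 0.23) per 10000, and deep mouse B cells 38 and 178 UMIs, or 0.84 (0.59 to 1.15) and 0.79 (0.68 to 0.91). The intervals of the 2 groups did not overlap in either library. At 150 cells per µl 1 mouse B cell held 16 of the 38 UMIs, and of the 43 in the whole deep class. The intervals cover counting error only and do not take this into account. The log2 difference over shallow and deep cells was 2.303 (SE 0.23), again without a p because the groups were split on the same cells. It was 3.31 in the 150 library alone, where deep mouse A had 5 Neat1 UMIs, and 2.14 in the 300 library alone. Of deep cells, 11.6% and 12.6% of mouse A and 50% (15 of 30 cells) and 40.6% of mouse B had a Neat1 UMI. Of deep human cells 1.22% and 2.13% had one, but these cells held only 10037 and 47430 mouse UMIs in all. The shares are thus not at a common mouse depth. Per 10000 mouse UMIs, Neat1 in deep human cells (1.00 and 1.27, on 1 and 6 UMIs) was not below that in deep mouse B. Thinned to 1000 UMIs, the shares of the mouse groups were 0.94% and 1.74% in mouse A, and in mouse B 8.45% and 8.0%. At these counts a deep cell with no Neat1 UMI cannot be said to lack the RNA.

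Human MALAT1 was at almost the same level in deep cells of both libraries. It made up 49.7 (48.0 to 51.5, 3031 UMIs) and 47.9 (46.7 to 49.2, 6101 UMIs) per 10000 human UMIs. In barcodes of 200 to 600 UMIs the level was 63.5 (59.7 to 67.4, 1055 UMIs) and 70.8 (66.8 to 74.98, 1164 UMIs), above the deep class in both libraries. The fitted log2 difference of 0.47 (SE 0.21) did not pass the threshold, with an edgeR adjusted p of 0.0871, in a comparison in which 14.1% of 3600 human genes were called higher and the median log2 difference of all genes was 0.16. Human UMIs in deep mouse cells had 50.3 (30.7 to 77.6, 20 UMIs) and 52.1 (43.7 to 61.6, 137 UMIs) MALAT1 per 10000. One mouse barcode held 23 of these 137 UMIs.

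In shallow human barcodes the libraries went opposite ways. The level was 126 (101 to 156, 85 UMIs in 5 barcodes) at 150 cells per µl, above the deep class, and 34.9 (30.1 to 40.4, 183 UMIs in 36 barcodes) at 300 cells per µl, below it. The fitted log2 difference was 0.40 (SE 0.24) with an edgeR adjusted p of 0.854, where 0.111% of human genes were called higher. With both classes taken over all barcodes of their depth, mouse and mixed barcodes included, it was 1.25 with an edgeR adjusted p of 1.20e-05. That comparison is not one of human cells alone. Of the 5 barcodes at 150 cells per µl, 2 were at 375 and 210.2 per 10000 and the median was 72.4, while no shallow human barcode at 300 cells per µl reached 200.

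**Figure D3:**
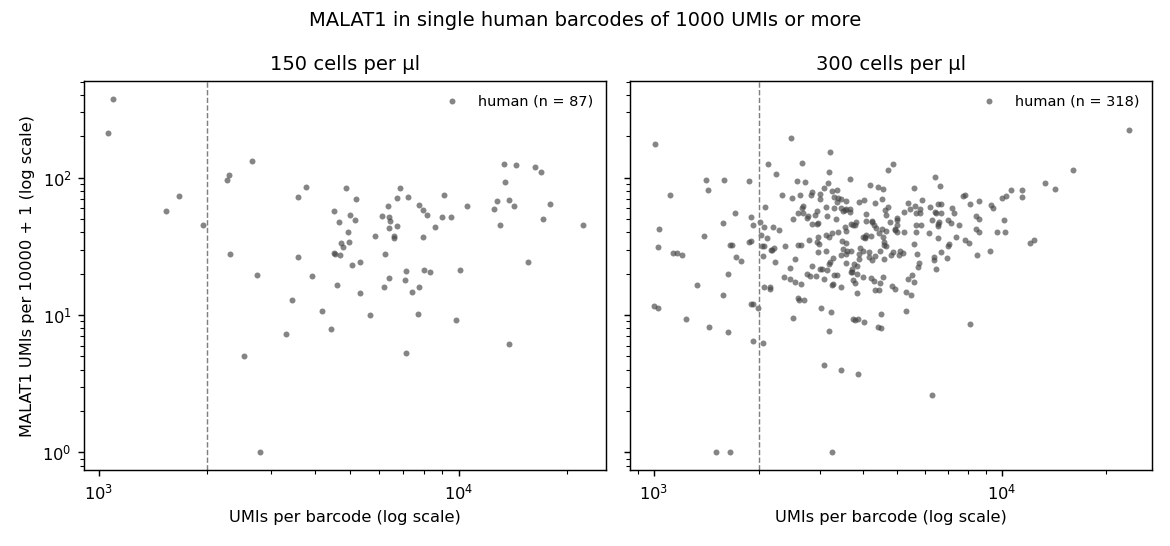
MALAT1 UMIs per 10000 human UMIs plus 1 (log scale) against total UMIs (log scale) for each human barcode of 1000 UMIs or more, 87 at 150 and 318 at 300 cells per µl, with the dashed line at 2000 UMIs. Most barcodes lay between 10 and 100 per 10000 at every depth, and the 2 highest at 150 cells per µl were the shallowest.

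Single deep human cells ranged from 19.7 to 61.3 per 10000 (the middle 50%, median 40.5) at 150 and from 23.2 to 57.5 (median 37.9) at 300 cells per µl. The overdispersion of MALAT1 was 0.451 (rank 9 of 173 genes) and 1.16 (rank 7 of 407 genes). The second value was 0.320 without 1 cell that held 505 MALAT1 UMIs among 22695 human UMIs. Pearson's r of the log level plus 1 with log depth across cells was 0.29 (82 cells) and 0.20 (282 cells). The 2 human lines were not separated here, so differences between cells of 1 line and between lines cannot be told apart.

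A set of barcodes below the depth of the shallow class, with mostly human UMIs, had much higher levels of both human RNAs than deep human cells. It was defined as barcodes of 300 to under 1000 UMIs with at least 50% human UMIs, and counted 51 barcodes at 150 and 82 at 300 cells per µl, with median human shares of 73.2% and 75.5%. The same numbers of barcodes, with the same UMIs, were found when MALAT1 and NEAT1 were left out of the human share. MALAT1 stood at 170 (153 to 189, 357 UMIs) and 214 (199 to 228, 859 UMIs) per 10000 human UMIs, above the deep and lowest classes of the same library. Single barcodes ranged from 0 to 943 with a median of 50 in the 150 library, and from 0 to 1228 with a median of 197 at 300 cells per µl. In the first library the high sum thus rested on a minority of the barcodes, whereas in the second the median barcode was itself high.

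In an edgeR fit of these barcodes against deep human cells, which was added after their levels were seen, MALAT1 was 3.92-fold higher (log2 difference 1.97, SE 0.25, edgeR adjusted p of 2.37e-12). Of 5706 human genes tested, 2.84% were called higher in this comparison. The single libraries gave 1.78 and 2.16 on the log2 scale, and DESeq2, TMM scaling, no filter and no library block each kept the call. NEAT1 had 6 and 21 UMIs in these barcodes, or 2.86 (1.05 to 6.23) and 5.22 (3.23 to 7.98) per 10000, against 0.30 (0.17 to 0.47, 18 UMIs) and 0.41 (0.31 to 0.54, 52 UMIs) in deep human cells. Its log2 difference was 3.56 (SE 0.53, 11.8-fold) with an edgeR adjusted p of 2.71e-09, and it was called under the same alternatives. Mouse Malat1 in the same barcodes was at 64.8 and 78.4 per 10000 mouse UMIs against 61.7 and 79.5 in the barcodes of 200 to 600 UMIs. Markers of TALL-104 and Jurkat could not be matched to identifiers, and which line these barcodes came from was not tested.

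**Figure D4:**
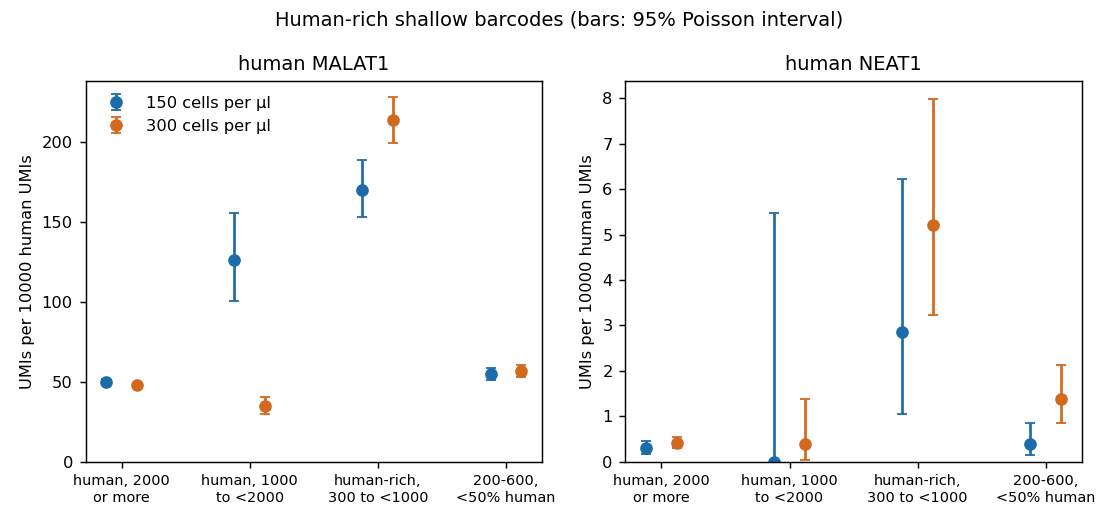
MALAT1 and NEAT1 (UMIs per 10000 human UMIs, linear axes from 0) in deep and shallow human cells, in human-rich barcodes of 300 to under 1000 UMIs and in barcodes of 200 to 600 UMIs with under 50% human UMIs, at 150 (blue) and 300 (orange) cells per µl, with 95% Poisson intervals. The human-rich barcodes stood at 170 and 214 for MALAT1, and the remaining barcodes of 200 to 600 UMIs at 54.9 and 56.5, near the deep class.

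Some of the human-rich barcodes lie in the 200 to 600 UMI class. Without barcodes of at least 50% human UMIs that class had 54.9 (51.2 to 58.7) and 56.5 (52.8 to 60.5) MALAT1 UMIs per 10000, and the log2 difference from deep cells went from 0.47 to 0.19 (edgeR adjusted p of 0.490). NEAT1 in the whole lowest class was at 0.42 (0.17 to 0.87, 7 UMIs) and 1.58 (1.03 to 2.32, 26 UMIs), with a fitted log2 difference from deep cells of 1.49 (SE 0.47) and an edgeR adjusted p of 0.0119. That call was lost with DESeq2 (adjusted p of 0.496), and the 150 library alone gave 0.51. Without the barcodes of at least 50% human UMIs the log2 difference was 1.31 with an edgeR adjusted p of 0.0441. NEAT1 passed the filter on low counts of these fits only through sums at 300 cells per µl. These were the lowest class and deep mouse cells (1.52). Its levels in deep human cells (0.30 and 0.41) were too low to pass. The adjusted p values do not allow for this selection. With no filter the log2 difference of the whole lowest class from deep cells was 1.53, with an edgeR adjusted p of 0.00276. NEAT1 counted 0 and 2 UMIs in shallow human barcodes, the first of which allows up to 4.44 per 10000, and a difference from deep cells was not detectable (log2 difference -0.37, SE 1.23, edgeR adjusted p of 0.995). In deep mouse cells 0 and 4 NEAT1 UMIs were found, and all 4 were in 1 barcode.

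The libraries were then compared within a class. With 1 library per concentration the ratio has no replicate check, and its 95% interval covers counting error only. In deep cells Malat1 was lower at 300 than at 150 cells per µl by 0.44 on the log2 scale in mouse A (interval of the 300 to 150 log2 ratio -0.52 to -0.36) and by 0.13 in mouse B (-0.18 to -0.08). In barcodes of 200 to 600 UMIs it was 0.37 higher (0.30 to 0.43). MALAT1 differed by -0.05 (-0.12 to 0.01) in deep cells and by 0.16 (0.04 to 0.28) in the lowest class. None of these 5 ratios reached 2-fold, a difference that 3.73% and 5.13% of genes passed in deep mouse A and B, 0.969% in the mouse and 1.24% in the human lowest class and 1.82% in deep human cells. In the shallow classes the log2 ratios were beyond 2-fold, at -1.12 for Malat1 and -1.85 for MALAT1, where 11.1% of mouse and 40.7% of human genes did so as well. With TMM scaling they were -0.60 and -0.91, under 2-fold. NEAT1 in the lowest class had a log2 ratio of 1.91 (0.67 to 3.36), on 7 and 26 UMIs.

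The 2 RNAs of a species were also set against each other, as a ratio within each class. Neat1 counted 0.73 (exact binomial interval 0.52 to 0.98) and 0.91 (0.80 to 1.03) UMIs per 100 Malat1 UMIs in deep mouse cells, and 1.18 (0.79 to 1.69) and 1.35 (1.08 to 1.67) in the lowest class. The intervals, which cover counting error only, overlapped at 150 cells per µl and were apart at 300 cells per µl. A difference in ratio thus rests on 1 library. NEAT1 counted 0.59 (0.35 to 0.94) and 0.85 (0.64 to 1.12) per 100 MALAT1 UMIs in deep human cells and 1.68 (0.61 to 3.69) and 2.44 (1.51 to 3.76) in the human-rich barcodes, with the same pattern of overlap. These ratios serve to compare classes, not the abundance of the 2 RNAs, since the counts were not set per length.

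**Figure D5:**
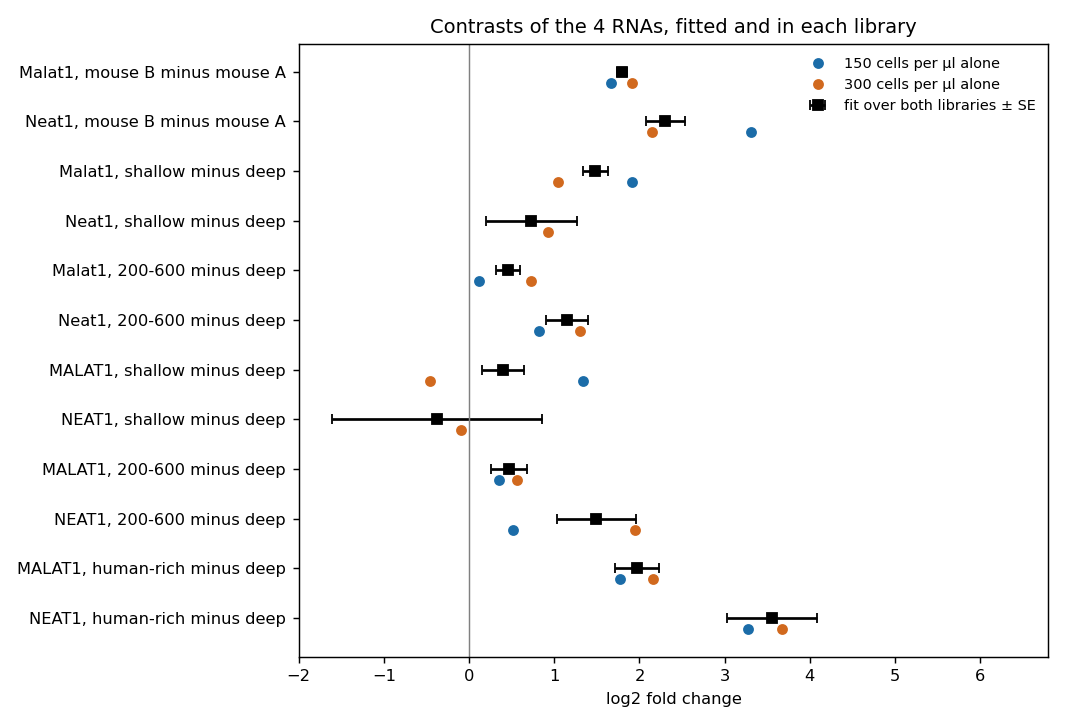
Log2 fold change (linear axis) of the mouse genes between mouse B and A and of each gene in the shallow class, the lowest class and, for human genes, the human-rich barcodes against deep cells. Black squares are fits over both libraries with bars of 1 SE, and points are the same difference in the library at 150 (blue) or 300 (orange) cells per µl alone, with no point where a class held 0 UMIs. Of these plotted comparisons, those with 2 points had both on the same side of 0 except MALAT1 in shallow barcodes, at 1.34 and -0.46.

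Other genes followed a similar course over the classes. Over 10 sums (library by lowest class and by depth within mouse A and B), the genes most like Malat1 by Pearson's r of log2 levels were ENSMUSG00000027422 (r = 0.972) and ENSMUSG00000027009 (r = 0.970), and 44 of 5767 genes compared had r above 0.9. The gene most like Neat1 was ENSMUSG00000038518 (r = 0.990). Over 6 human sums the genes most like MALAT1 were ENSG00000084093 (r = 0.995) and ENSG00000111707 (r = 0.994), with 132 of 2523 genes above 0.9. Points of a library share its free RNA and depth, and the correlations are descriptions. NEAT1 had 105 UMIs over these sums, too few to be compared.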

How the data were processed

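For each library the authors deposited a table of raw UMI counts by gene and barcode. In the methods of the study, reads were downsampled before Drop-seq tools and the STAR aligner were run on them, and the submitters' processing notes name the builds hg19 and mm10, STAR 2.4.2a and Cell Ranger 1.2.0. Whether the deposited counts came from downsampled reads, and whether counting used strand, is not given in the sources used here. Reads of antisense RNAs at these loci can therefore not be told apart, and conserved stretches may be lost or assigned to the other species.

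UMI counts were summed per library and class, and a gene absent from a table counted as 0. Sums were tested with edgeR 4.0.16 (quasi-likelihood test, scaling by the total UMIs of the species, filterByExpr, library as a block, Benjamini-Hochberg adjustment over all genes of the species tested, threshold 0.05) in R 4.3.3, and the script was tested on simulated counts. The spread is that between 2 libraries of 1 cell mixture, which may be technical, and rests on 1 to 3 residual degrees of freedom shared across genes. Alternatives were DESeq2 1.42.0, TMM scaling, no filter, no block, single libraries and other class limits. Mouse groups came from the first principal component of the 2000 most variable genes without Malat1 and Neat1. The 4 genes, the classes and the lists were chosen with earlier results of these data known. The named genes were these 4 and those with the most similar pattern. Ensembl identifiers matched 0 names of the table at hand, so fixed lists of mitochondrial, ribosomal, speckle, paraspeckle and cell line marker genes were not applied. Doublets were not called, and barcodes with under 90% of either species were kept out of the cell classes.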

Additional observations from a re-analysis of the deposited data

Results flagged for a closer look

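Several of the RNAs were also above the limit that a count of 0 allows in a pair of barcode sets outside the depth classes. In barcodes of over 600 and under 1000 UMIs with at least 90% of 1 species, Malat1 was at 264.6 per 10000 mouse UMIs in 11 barcodes at 150 cells per µl and at 103.2 in 168 barcodes at 300 cells per µl. The medians over barcodes were 24.3 and 45.9, and the highest single barcodes had 1632 and 2458 per 10000, with 119 and 161 Malat1 UMIs. Neat1 was at 2.34 per 10000 at 300 cells per µl, with 10 of its 28 UMIs in 1 barcode. MALAT1 was at 111.4 and 102.1 per 10000 human UMIs, in 5 barcodes of each library. Neat1 at 150 cells per µl and NEAT1 in both libraries counted 0 or 1 UMI in this set, which is under that limit.

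In barcodes of 1000 UMIs or more with under 90% of either species, which can hold cells of both, Malat1 was at 37.3 and 57.9 and MALAT1 at 139.6 and 56.9 per 10000 UMIs of its species at 150 and 300 cells per µl, in 18 and 121 barcodes. Neat1 was at 0.865 and NEAT1 at 0.766 at 300 cells per µl. Of the 276 MALAT1 UMIs at 150 cells per µl, 94 were in 1 barcode. None of these values was tested.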

How the results depend on the processing

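The 4 genes had 238 values under alternative settings. Of these, 195 kept their direction and either their side of the threshold or, where no p was given, a place within 1 SE of the main value. Values that were uncalled and stayed so are among the 195. Of the rest, 9 lost their call, 2 gained one, 9 reversed and 23, all without a p, moved by more than 1 SE. With TMM scaling the median of all genes moved from 0.06 to -0.24 for mouse and from 0.03 to -0.30 for human genes in deep cells of the other species. Malat1 then gave 0.32 (lowest minus deep), 1.23 (shallow minus deep), 0.97 (the same in mouse B) and 2.62 (mouse B minus A, shallow), all without a call. The difference of deep cells of the other species from deep cells reversed to -0.059 for Malat1 and -0.43 for MALAT1, and that of NEAT1 between the lowest class and cells of the other species to 0.036. The Malat1 ratio of 300 to 150 cells per µl became -0.56 in deep mouse A and -0.27 in deep mouse B, and that of MALAT1 -0.17. DESeq2 lost Malat1 lowest minus deep (0.37), Malat1 shallow minus deep in mouse B (1.41) and NEAT1 lowest minus deep (1.26), and MALAT1 in mouse cells reversed to -0.22. Malat1 lowest minus deep was also lost without the library block (0.43) and at 90% purity (0.41). Neat1 lowest minus deep had no adjusted p with DESeq2 (1.02) and was not among the genes tested at 90% purity. MALAT1 lowest minus deep was called without a filter (0.47, adjusted p of 0.0177 by edgeR). With barcodes of any purity, mouse and mixed barcodes included, MALAT1 shallow minus deep was called (1.25) and that of NEAT1 reversed to 0.48. With barcodes weighted equally, Malat1 gave 0.26, 1.22 and 0.14 for the lowest, shallow and other-species comparisons, -0.83 and -0.56 for the ratios between libraries in deep mouse A and B, and MALAT1 shallow minus deep 0.76. The Neat1 group by depth difference reversed to 0.019 without cells near the split. The causes were not tested.

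With 1 library left out, Malat1 gave 0.12 to 0.73 (lowest minus deep), 1.04 to 1.92 (shallow minus deep), 0.87 to 2.305 and 0.069 to 0.69 (the same in mouse B and A), 0.18 to 2.24 (their difference), 2.07 to 3.82 (mouse B minus A, shallow), 1.66 to 1.91 (mouse B minus A), -0.048 to 0.19 (lowest minus other species) and 0.17 to 0.54 (other species minus deep). Neat1 gave 0.82 to 1.30 (lowest minus deep) and 2.13 to 3.31 (mouse B minus A in deep cells, and 2.14 to 3.31 in all). MALAT1 gave -0.46 to 1.34 (shallow minus deep). NEAT1 gave 0.51 to 1.95 (lowest minus deep) and 0.057 in the 300 library (lowest minus other species). No value could be given where a class held 0 UMIs. Left-out libraries leave too few degrees of freedom for a test.

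Counts of genes called over all genes moved by more than 1.5 times in 39 of 91 alternatives, mainly with DESeq2, TMM scaling and no library block. They ranged from 8 to 904 (main count 908) for mouse lowest minus deep, 7 to 30 (22) for mouse shallow minus deep, 2 to 827 (856) and 1 to 13 (8) for the same in human genes, 1943 to 5650 (5136) between the mouse groups and 58 to 265 (185) in human-rich barcodes. Human fits at 95% purity and with the lowest class at 90% purity had an empty class and were not run, nor were the settings without mitochondrial genes or with a marker split, which need gene names. The labels give no replicate numbers to pair samples by. Classes of 1 library were compared with library as a block in every fit reported, and of the calls on the 4 RNAs 1 was lost without that block, Malat1 lowest minus deep. Depth limits Neat1 and NEAT1 most: in the shallow classes 0 to 12 UMIs were counted, so only large differences could be seen.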
